A study of Homo sapiens with 16 samples.

Results

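The 39 genes described here are genes of the response to low oxygen and of glycolysis, taken from the 57820 genes of the count table by their symbols. All 39 symbols were found in the table, each on a single row. The list holds 3 genes of oxygen sensing (HIF1A, EGLN1, EGLN3), 5 transcriptional and signalling regulators (BHLHE40, MXI1, KDM3A, DDIT4, ANKRD37), 3 secreted or surface genes (VEGFA, ADM, CA9), 4 genes of mitochondrial proteins (BNIP3, BNIP3L, FAM162A, PDK1), P4HA1, P4HA2 and NDRG1, 3 transporters (SLC2A1, SLC2A3, SLC16A3), 11 genes of upper glycolysis from HK1 to TPI1 and 7 of lower glycolysis from GAPDH to LDHA. The levels of these genes in the groups of libraries, and their changes between scrambled, wild-type and USP7 shRNA cells, were known when the list was drawn up, so that the genes were in effect chosen by these values. They are therefore given as a description and support nothing beyond themselves.

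The libraries came from Jurkat and HSB-2, established cell lines of T-lineage acute lymphoblastic leukemia (T-ALL) whose genotype the labels give as TAL1+. In each line there were 2 libraries of wild-type cells, 2 of cells with a scrambled control, 2 with USP7 shRNA-4057 and 2 with USP7 shRNA-4058, 16 libraries in all. The hairpins (short hairpin RNAs, which direct the degradation of a matching transcript) target different exons of USP7, a deubiquitylating enzyme, and were delivered by lentivirus. Transduced cells were either sorted for GFP or selected with puromycin, and which line went through which selection was not stated. Wild-type cells were not transduced, so that scrambled against wild-type cells also compares transduced and selected with untouched cells. The labels of the samples call the scrambled control an siRNA and the design text calls it an shRNA. Nothing states whether the 2 libraries of a group were separate transductions, so the p-values measure the spread between these libraries, which may be technical. Total counts ranged from 76.6 to 235 M (M, mega) per library, and from 86.9 to 110.3 M in Jurkat. USP7 itself had a mean of 391 CPM (a gene's counts per 1 M counts of its library, with TMM scaling) in wild-type and 385 CPM in scrambled Jurkat cells, against means of 143 and 243 CPM with shRNA-4057 and shRNA-4058. The HSB-2 libraries had 239.9 and 224 CPM in the controls, against 146 and 159 CPM with the hairpins. Of 11 markers of the T lineage, 11 reached 1 CPM in each Jurkat group and 9 to 11 in the HSB-2 groups. The scrambled Jurkat libraries stood apart, with 15.99% of their counts in the 10 most abundant genes, against 8.54% to 11.5% in the other Jurkat groups. Of 5 B-cell markers only CD79A reached 1 CPM in Jurkat, and their summed level was 61.6 to 64.8 CPM in the scrambled libraries and 22.0 to 36.4 CPM in the other Jurkat libraries. The scrambled HSB-2 libraries differed from the others of their line as well. Their T-lineage markers summed to 2999 to 3076 CPM, against 3487 to 4180 CPM in the other HSB-2 libraries. Their B-cell markers summed to 1.17 to 1.27 CPM, against 3.21 to 4.61 CPM. They lay above the other 3 groups of HSB-2 in 18.1% of all genes and below them in 17.8%. The part of these features in the results was not tested. Each result against scrambled cells rests on the scrambled libraries of its line, and the comparison of shRNA with wild-type cells leaves them out.

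HIF1A encodes the oxygen-regulated subunit of hypoxia-inducible factor, a transcription factor that binds short DNA elements with the core ACGTG or GCGTG. When oxygen is present, the prolyl hydroxylases encoded by EGLN genes mark the protein for degradation, so that its activity is set largely by protein stability and can change without a change of its transcript. When oxygen is low, the factor is known to raise the transcription of glucose transporters, of most glycolytic enzymes, of PDK1, which holds pyruvate back from the mitochondria, and of its own negative regulator EGLN3. T-cell leukemia lines in culture rely heavily on glycolysis, and the enzymes of the pathway are among the most abundant transcripts of such cells.

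The promoter windows of 6 members whose values are described in detail here are shown with these core elements marked. Whether members that move together share such elements was not tested. Each window runs from 250 bases before to 50 bases after a transcription start in RefSeq (build GRCh38.p14, another build than that of the counts), is written 5′ to 3′ on the strand of the gene, and has ACGTG and GCGTG on either strand in capitals. A match to CACGTG holds ACGTG on both strands and was counted on each. The windows lie at chr3:4979187-4979486 for BHLHE40, chr4:185396591-185396890 for ANKRD37, chr11:10304823-10305122 for ADM, chr17:28576846-28577145 for ALDOC (minus strand), chrX:78103998-78104297 for PGK1 and chr14:33951025-33951324 for EGLN3 (minus strand).
BHLHE40: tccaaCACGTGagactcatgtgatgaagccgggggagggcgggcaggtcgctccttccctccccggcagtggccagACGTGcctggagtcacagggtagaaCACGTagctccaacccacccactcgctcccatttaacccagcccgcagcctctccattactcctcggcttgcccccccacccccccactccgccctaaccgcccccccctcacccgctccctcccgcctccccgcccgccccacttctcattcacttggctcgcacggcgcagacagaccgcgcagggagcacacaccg
ANKRD37: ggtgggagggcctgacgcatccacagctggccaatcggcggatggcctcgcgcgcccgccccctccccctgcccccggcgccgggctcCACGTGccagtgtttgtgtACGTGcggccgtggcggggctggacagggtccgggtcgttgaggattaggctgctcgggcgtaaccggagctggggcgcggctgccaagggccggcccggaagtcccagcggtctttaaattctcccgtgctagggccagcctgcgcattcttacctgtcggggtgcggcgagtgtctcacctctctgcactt
ADM: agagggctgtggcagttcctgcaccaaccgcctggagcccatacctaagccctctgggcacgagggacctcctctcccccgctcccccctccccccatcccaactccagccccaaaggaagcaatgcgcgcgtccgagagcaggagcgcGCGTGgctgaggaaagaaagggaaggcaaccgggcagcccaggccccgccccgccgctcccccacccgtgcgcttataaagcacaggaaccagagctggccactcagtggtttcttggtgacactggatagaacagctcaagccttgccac
ALDOC: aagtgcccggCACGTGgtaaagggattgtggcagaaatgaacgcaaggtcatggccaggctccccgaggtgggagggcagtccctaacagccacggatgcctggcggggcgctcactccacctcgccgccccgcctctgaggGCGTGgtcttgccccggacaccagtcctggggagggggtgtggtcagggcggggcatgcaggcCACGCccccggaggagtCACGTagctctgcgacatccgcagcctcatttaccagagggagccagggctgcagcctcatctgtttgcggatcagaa
PGK1: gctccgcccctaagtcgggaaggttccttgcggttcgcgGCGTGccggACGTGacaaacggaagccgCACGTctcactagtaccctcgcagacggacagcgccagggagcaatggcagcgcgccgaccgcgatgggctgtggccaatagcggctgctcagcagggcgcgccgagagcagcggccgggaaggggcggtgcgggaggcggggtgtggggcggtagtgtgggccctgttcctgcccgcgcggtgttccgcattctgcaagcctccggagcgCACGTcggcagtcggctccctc
EGLN3: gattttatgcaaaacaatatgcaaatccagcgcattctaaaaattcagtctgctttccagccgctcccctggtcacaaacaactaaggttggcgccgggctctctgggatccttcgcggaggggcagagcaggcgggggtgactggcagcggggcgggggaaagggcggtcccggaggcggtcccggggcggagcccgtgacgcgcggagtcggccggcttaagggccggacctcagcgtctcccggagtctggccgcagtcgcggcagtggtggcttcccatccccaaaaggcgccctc

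ACGTG was found 4 times in the window of BHLHE40 and 3 times in each of the windows of ANKRD37, ALDOC and PGK1, with CACGTG in all of these but that of PGK1. GCGTG was found 2 times in the ALDOC window and once in that of PGK1. The ADM window held GCGTG once, and that of EGLN3 held neither core. Over the 35 members with a window in the table, which have 65 windows, ACGTG was present in 27 windows (41.5%), against 21.4% of all 35116 windows of the table. GCGTG was present in 27 (41.5%) against 36.5%, and either core in 44 (67.7%) against 48.4%. A window with either core was found for 32 of the 35 members, some of which have several windows. The share of all genes with such a window was not computed, so this count is not to be read against the shares of windows. These are counts of letters and say nothing of binding.

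**Figure D1:**
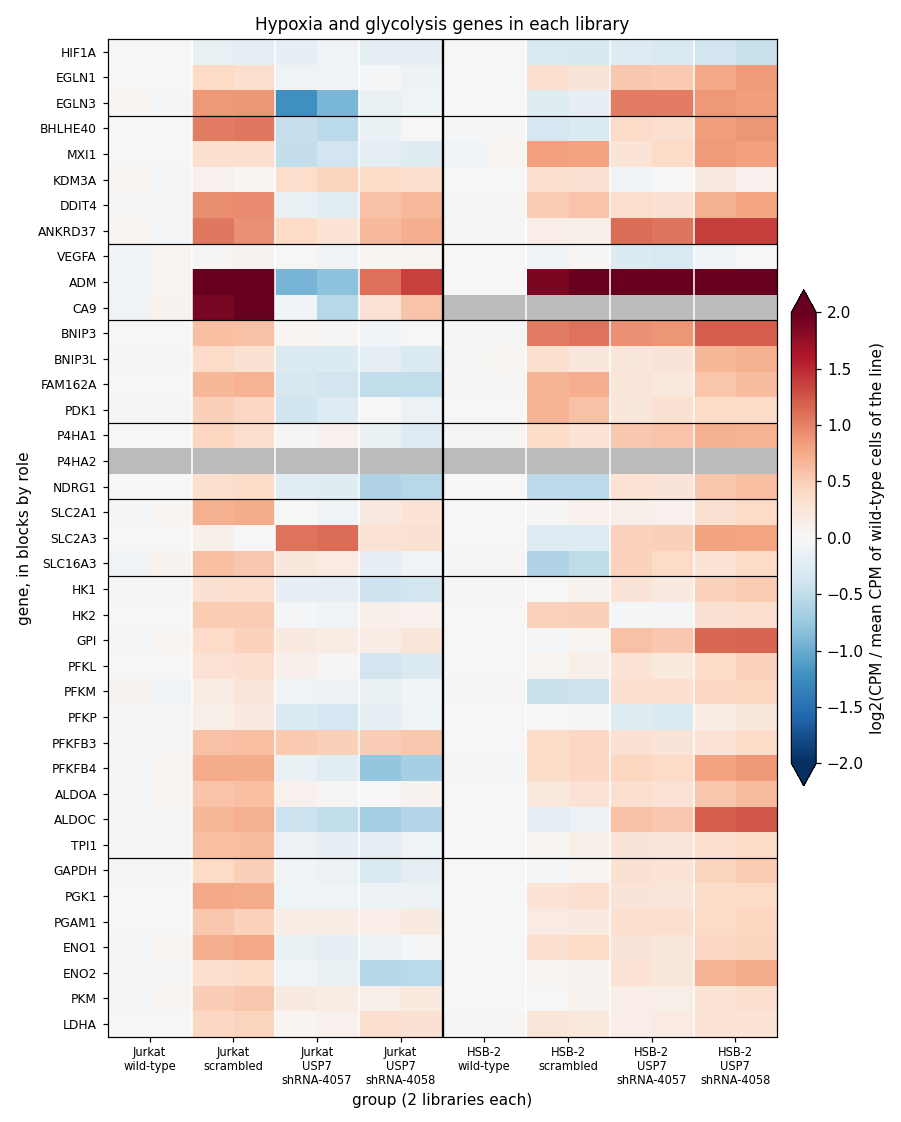
Level of each gene in each library on a colour scale of log2(CPM / mean CPM of the wild-type cells of the same line), with genes in rows by role and the 16 libraries in columns; a gene under 1 CPM in each group of a line is grey. The scrambled columns are red for most genes in Jurkat, and in HSB-2 the reddest columns are those of USP7 shRNA-4058.

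The enzymes of glycolysis were by far the most abundant of these transcripts. Set per kilobase of transcript, GAPDH was highest in each of the 8 groups (3163 to 6432 CPM per kb) and ENO1 next (1542 to 3627 CPM per kb), followed by ALDOA (751 to 2573), PKM (800.1 to 1217) and LDHA (744 to 1047), whose order differed between groups. Together, the 16 genes of glycolytic enzymes took 1.79% ± 0.016 (SD, n = 2) of all counts in wild-type Jurkat cells and 2.35% ± 0.0049 in scrambled Jurkat cells. They took 1.89% with shRNA-4057 (± 0.017) and 1.89% with shRNA-4058 (± 0.038). In HSB-2 the share was 2.37% ± 0.016 in wild-type cells, 2.75% ± 0.061 in scrambled cells, 2.71% ± 0.012 with shRNA-4057 and 3.09% ± 0.027 with shRNA-4058. The scrambled cells thus had the highest share in Jurkat, and shRNA-4058 cells the highest in HSB-2, each without overlap with the other groups of the line. Since all cells of a library are measured together, a smaller fraction of cells with a transcript and less of it in each cell cannot be told apart in any of these values. At the low end, P4HA2 stayed under 1 CPM in each group, CA9 reached 1 CPM only in scrambled Jurkat cells, and ADM was under 1 CPM in wild-type HSB-2 cells.

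In Jurkat, the scrambled cells were set against wild-type cells to see what transduction and a hairpin without a target go with. A gene was called where edgeR's quasi-likelihood test gave a Benjamini-Hochberg adjusted p under 0.05 over all genes tested. Of the 39 genes, 33 were called higher and 1 lower (HIF1A), while 25.9% of all 23063 genes tested were called in either direction. The median log2 fold change was 0.50, against -0.0042 over all genes. Cells with USP7 shRNA differed from scrambled cells in the other direction. With both hairpins pooled (4 libraries against 2), 29 of 38 genes tested were lower than in scrambled cells and 1 (KDM3A) higher, where 28.0% of all genes were called, and the median was -0.57. Both comparisons use the same scrambled libraries, with opposite sign. The count of 30 fell when either scrambled library was left out, so that a single library stood for the control. The share of all genes called then is not given here, so the fall is not to be read as particular to these genes. Under scaling by library totals alone the count was 24 (5 higher, 19 lower), where the median of all genes moved by 0.25 on the log2 scale.

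Against wild-type Jurkat cells, the same 4 shRNA libraries differed in 4 of 38 genes, with KDM3A and PFKFB3 higher and FAM162A and ALDOC lower. Of all genes, 8.41% were called in that comparison (5.31% lower). The median log2 fold change of the genes was -0.057. The count rests on how the hairpins are treated. When each hairpin was set against wild-type cells in the fit of all 16 libraries, 27 genes were called with shRNA-4057 (8 higher, 19 lower), where 36.7% of all genes were called. With shRNA-4058, 27 were called (12 higher, 15 lower), where 35.9% of all genes were called. The pooled count also fell when either wild-type library was left out, so that a single library stood for the control. The share of all genes called then is not given here, so that fall is not to be read as particular to these genes. Counted by libraries, the 2 scrambled libraries lay above all 6 others of the line in 34 of 39 genes, where 19.4% of all genes did so. The exceptions were HIF1A, KDM3A, VEGFA, P4HA2 and SLC2A3. All 4 shRNA libraries lay below all 4 control libraries in 15 of 39 genes, where 17% of all genes did so. They lay above them in 2 (KDM3A and SLC2A3), where 11.5% of all genes did so.

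In HSB-2, scrambled cells were higher than wild-type cells in 18 genes and lower in 8, where 34.1% of all genes were called in either direction, and the median log2 fold change was 0.091. With USP7 shRNA, 19 genes were higher than in scrambled cells and 3 lower (KDM3A, PDK1 and HK2), with a median of 0.22; 38.1% of all genes were called, and 20.3% of all genes were called higher. The count of 22 fell without either scrambled library, and under library totals alone it was 19 (11 higher, 8 lower), where the median of all genes moved by -0.14. Against wild-type cells, 32 genes were higher with shRNA and 1 (HIF1A) lower, where 25.1% of all genes were called, with a median of 0.41. That count fell as well when either wild-type library was left out, so that 1 library stood for the control. The shares of all genes called in these refits are not given here, so such a fall is not to be read as particular to these genes. By libraries, both shRNA-4058 libraries lay above the 6 others of the line in 27 of 39 genes, where 17.6% of all genes did so, and wild-type libraries lay below the 6 others in 21 of 39 (8.36% of all genes). All 4 shRNA libraries lay above all 4 control libraries in 21 genes (15.6% of all genes).

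**Figure D2:**
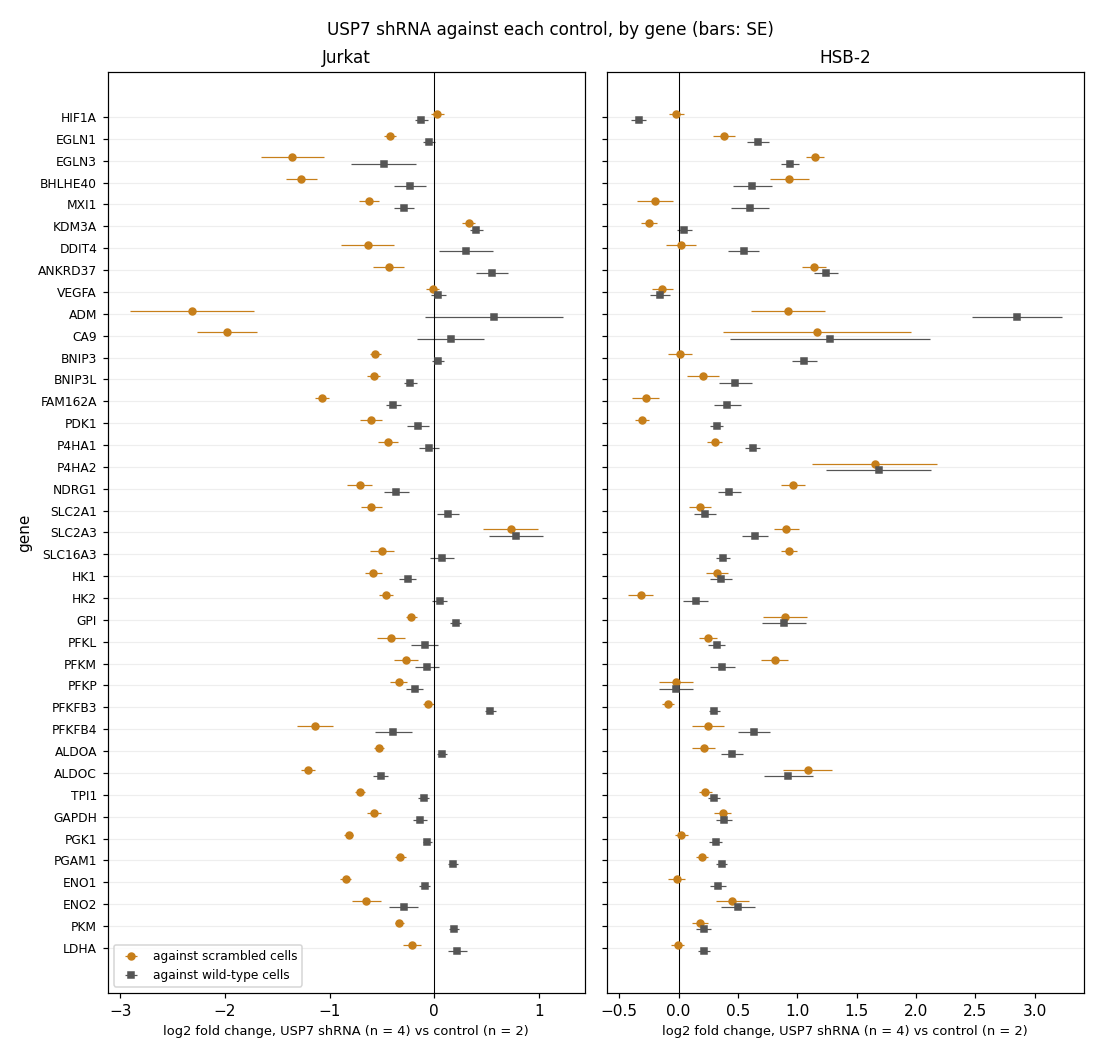
Log2 fold change of USP7 shRNA (both hairpins, n = 4) against scrambled (orange circles, n = 2) and against wild-type cells (grey squares, n = 2) on the horizontal axis for each gene in Jurkat and HSB-2, with bars for the standard error. In Jurkat most circles lie left of 0 and most squares nearer to it, and in HSB-2 all squares but those of HIF1A, VEGFA and PFKP lie right of 0; under library totals alone the circle of GPI in Jurkat changes sign.

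Among the genes of oxygen sensing, HIF1A varied least. Its level was 83.5 and 83.4 CPM in the wild-type Jurkat libraries and lay between 73.0 and 79.3 CPM in the 6 others. In HSB-2 it was 116 and 117 CPM in wild-type libraries and lay between 85.4 and 97.9 CPM in the others. In both lines the wild-type libraries were thus the highest, with no overlap. USP7 shRNA against scrambled cells gave 0.03 ± 0.06 (SE) in Jurkat and -0.02 ± 0.07 in HSB-2 on the log2 scale, neither of which was called. The antisense genes HIF1A-AS1 and HIF1A-AS3 overlap its exons, and the strand setting of the counts was not stated, so part of its reads could belong to them.

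EGLN3, a prolyl hydroxylase that is itself induced by low oxygen (chr14:34393433-34931980 in GRCh37, minus strand), moved in opposite directions in the lines. In Jurkat it had 4.70 and 4.47 CPM in wild-type cells, 8.31 and 8.41 in scrambled cells, 1.96 and 2.43 with shRNA-4057 and 4.12 and 4.31 with shRNA-4058. Its HSB-2 values were 78.5 and 78.7 CPM in wild-type cells, 66.5 and 70.2 in scrambled cells, 160.5 and 160.3 with shRNA-4057 and 143 and 139.8 with shRNA-4058. The scrambled libraries were the highest of Jurkat and the lowest of HSB-2, and in neither line did they overlap with another group. USP7 shRNA against scrambled cells gave -1.36 ± 0.30 in Jurkat, a call that was lost when either scrambled library was left out, and 1.15 ± 0.08 in HSB-2. EGLN1, the main oxygen sensor of most cells, rose from 98.3 and 100.5 CPM in wild-type to 132 and 126 CPM in scrambled Jurkat cells and fell back to between 92.5 and 96.9 CPM with the hairpins. In HSB-2 it went from 121 and 124 CPM in wild-type cells through 155 and 147 CPM in scrambled cells to between 177 and 221 CPM with the hairpins. EGLN3 made up 6.88% of the summed per-kilobase level of both hydroxylases in wild-type Jurkat cells and 50.7% in wild-type HSB-2 cells.

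BHLHE40, a transcriptional repressor induced by low oxygen (chr3:5021122-5027008), followed the pattern of EGLN3. Its level in Jurkat was 52.8 and 53.1 CPM in wild-type cells, 107 and 109.7 in scrambled cells, 38.5 and 36.5 with shRNA-4057 and 48.4 and 53.5 with shRNA-4058. In HSB-2 it was 450.1 and 467 CPM in wild-type cells, 364 and 379.6 in scrambled cells, 597 and 569.5 with shRNA-4057 and 821 and 845 with shRNA-4058. Scrambled cells were again highest in Jurkat and lowest in HSB-2. The log2 fold change of scrambled against wild-type cells was 1.03 ± 0.04 in Jurkat and -0.30 ± 0.04 in HSB-2, and that of shRNA against scrambled cells was -1.27 ± 0.15 and 0.93 ± 0.16.

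MXI1, an antagonist of MYC, rose in scrambled cells of both lines, by 0.33 ± 0.06 in Jurkat and by 0.82 ± 0.05 in HSB-2. In Jurkat it had 22.3 and 22.7 CPM in wild-type cells, 28.0 and 28.6 in scrambled cells and 16.2 to 19.6 CPM with the hairpins. Its level in HSB-2 was 20.9 and 22.6 CPM in wild-type cells, 38.5 and 37.9 in scrambled cells, 26.2 and 28.6 with shRNA-4057 and 39.2 and 38.3 with shRNA-4058. Here the hairpins parted, since shRNA-4058 cells stayed at the level of scrambled cells and shRNA-4057 cells lay between both controls. DDIT4, an inhibitor of mTORC1, had 119 and 124 CPM in wild-type Jurkat cells, 232 and 235 in scrambled cells, 110.1 and 105 with shRNA-4057 and 183 and 191 with shRNA-4058. In HSB-2 its range was 581 CPM in a wild-type library to 1014 CPM in an shRNA-4058 library. Scrambled against wild-type cells gave 0.94 ± 0.04 and 0.54 ± 0.04 in the lines. With the hairpins pooled, shRNA against scrambled cells was called in neither. With each hairpin alone, DDIT4 was called lower than in scrambled Jurkat cells. In HSB-2 it was called lower with shRNA-4057 (-0.21 ± 0.04) and higher with shRNA-4058 (0.21 ± 0.04).

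ANKRD37, a small ankyrin repeat protein and a known HIF target, had 5.47 and 5.14 CPM in wild-type Jurkat cells, 11.03 and 9.99 in scrambled cells, 7.03 and 6.41 with shRNA-4057 and 8.33 and 8.77 with shRNA-4058. HSB-2 cells had 23.2 and 22.5 CPM in wild-type cells, 25.1 and 24.5 in scrambled cells, 49.7 and 48.1 with shRNA-4057 and 59.8 in both libraries with shRNA-4058. The shRNA libraries of HSB-2 were all far above the controls, with a log2 fold change of 1.14 ± 0.10 against scrambled and 1.24 ± 0.10 against wild-type cells. Its exons overlap those of UFSP2 on the other strand. KDM3A, a histone demethylase, was the exception of the group. It had 113 and 107 CPM in wild-type and 117 and 114 CPM in scrambled Jurkat cells, and 139 to 149 CPM in the 4 shRNA libraries, so that its change against both controls was an increase (0.33 ± 0.06 and 0.40 ± 0.06). The HSB-2 levels were 260.4 and 259.6 CPM in wild-type cells, 324 and 319.7 in scrambled cells and 248 to 294 CPM with the hairpins. In HSB-2 it was 0.25 ± 0.07 lower than in scrambled cells on the log2 scale.

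ADM, which encodes the secreted peptide adrenomedullin (chr11:10326620-10328944), had the largest change of these genes between scrambled and wild-type cells in both lines. In Jurkat it had 3.92 and 4.26 CPM in wild-type cells, 29.5 and 31.0 in scrambled cells, 2.14 and 2.32 with shRNA-4057 and 8.75 and 10.5 with shRNA-4058. Levels in HSB-2 were 0.342 and 0.336 CPM in wild-type cells, 1.25 and 1.36 in scrambled cells, 1.47 and 1.94 with shRNA-4057 and 3.10 and 3.35 with shRNA-4058. Scrambled libraries were the highest of Jurkat by a wide margin, and in HSB-2 all transduced groups lay above wild-type cells. Scrambled against wild-type cells gave 2.89 ± 0.10 in Jurkat and 1.94 ± 0.17 in HSB-2, and shRNA against scrambled cells gave -2.32 ± 0.59 in Jurkat, lost as a call without either scrambled library, and 0.92 ± 0.31 in HSB-2. CA9, a carbonic anhydrase of the cell surface, had 0.505 and 0.555 CPM in wild-type and 1.99 and 2.67 CPM in scrambled Jurkat cells. It lay between 0.359 and 0.788 CPM in the Jurkat shRNA libraries, so that scrambled cells were higher than wild-type cells by 2.14 ± 0.29 and shRNA cells lower than scrambled cells by 1.98 ± 0.29 on the log2 scale. For HSB-2 the values were 2 to 14 counts per library, too few for a level to be read there. The antisense gene ARHGEF39 overlaps its exons. VEGFA, the angiogenic growth factor that is among the best known targets of HIF, was called in neither line between scrambled and wild-type cells or between pooled shRNA and either control. With shRNA-4057 alone it was called lower in HSB-2, at -0.28 ± 0.04 against scrambled and -0.29 ± 0.04 against wild-type cells. It lay between 38.4 and 42.2 CPM in all 8 Jurkat libraries and between 171 and 216 CPM in those of HSB-2.

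**Figure D3:**
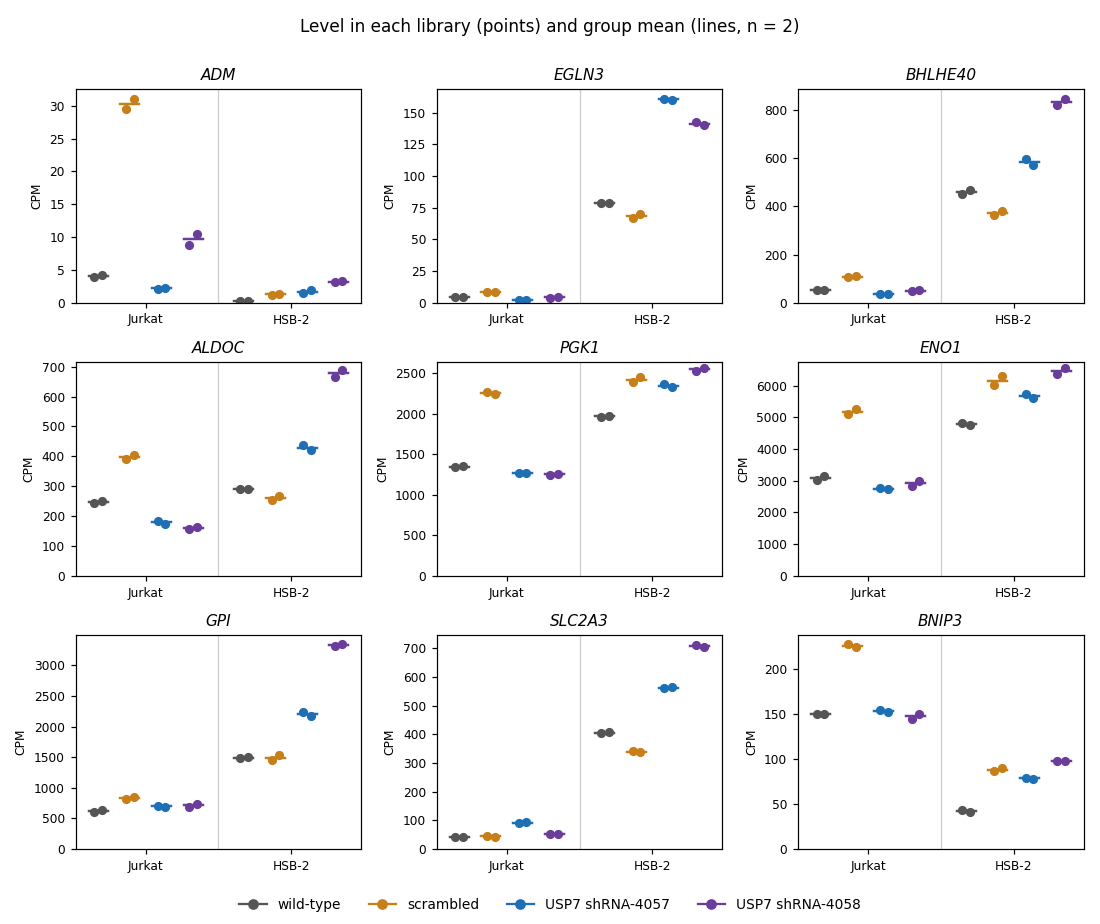
Level in CPM of 9 genes in each library (points) with the mean of each group (lines, n = 2), by line and group, each panel with its own axis from 0. For ADM, EGLN3, BHLHE40, ALDOC, PGK1, ENO1, GPI and BNIP3 the scrambled points are the highest of Jurkat, and for EGLN3, BHLHE40, ALDOC and SLC2A3 they are the lowest of HSB-2.

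The 4 genes of mitochondrial proteins rose in the scrambled cells of both lines. BNIP3, a receptor for mitophagy, had 149.8 and 150.3 CPM in wild-type and 229 and 224 CPM in scrambled Jurkat cells and between 145 and 155 CPM with the hairpins. The HSB-2 libraries had 43.1 and 41.6 CPM in wild-type cells, 86.4 and 89.9 in scrambled cells, 79.5 and 78.4 with shRNA-4057 and 98.4 and 98.2 with shRNA-4058. With the hairpins it lay near the wild-type level in Jurkat, whereas all 6 transduced HSB-2 libraries lay far above the wild-type ones. Scrambled against wild-type cells gave 0.59 ± 0.04 in Jurkat and 1.06 ± 0.04 in HSB-2. BNIP3L, its paralog, rose by 0.34 ± 0.04 and 0.28 ± 0.04 in the same comparisons.

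FAM162A, a mitochondrial protein induced by HIF, had 123 CPM in both wild-type Jurkat libraries, 195 and 198 CPM in scrambled cells, 98.1 and 94.8 CPM with shRNA-4057 and 87.4 and 87.1 CPM with shRNA-4058. Its HSB-2 values were 115 and 119 CPM in wild-type cells, 187 and 193 in scrambled cells, 139 and 135 with shRNA-4057 and 171 and 179 with shRNA-4058. With ALDOC, it was 1 of the 2 genes called lower than in wild-type Jurkat cells with the hairpins pooled, by 0.39 ± 0.07 on the log2 scale, while against scrambled cells the difference was -1.07 ± 0.07. Its exons overlap WDR5B on the other strand. PDK1, the kinase that inhibits pyruvate dehydrogenase, had 174 and 168 CPM in wild-type Jurkat cells, 237 and 227 in scrambled cells and 130.1 to 170.3 CPM in the shRNA libraries. HSB-2 cells had 117 CPM in both wild-type libraries, 188 and 175 CPM in scrambled cells and 136 to 153 CPM with the hairpins. It was lower with shRNA than in scrambled cells in both lines, by 0.60 ± 0.11 in Jurkat and 0.31 ± 0.06 in HSB-2, and HK2 was the only other gene called lower in both.

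P4HA1, a subunit of the collagen prolyl 4-hydroxylase, rose by 0.39 ± 0.04 in scrambled Jurkat cells and by 0.33 ± 0.04 in scrambled HSB-2 cells. P4HA2, the other subunit gene of the list, had 1 to 141 counts per library and is not described further. NDRG1, a stress-response gene, had 87.1 and 87.4 CPM in wild-type and 108 and 113 CPM in scrambled Jurkat cells, 75.2 and 74.1 CPM with shRNA-4057 and 57.6 and 59.2 CPM with shRNA-4058. Levels in HSB-2 were 169 and 172 CPM in wild-type cells, 118 and 119 in scrambled cells, 209 and 203 with shRNA-4057 and 250.5 and 258 with shRNA-4058. Scrambled cells were thus the highest of Jurkat and the lowest of HSB-2, as for EGLN3 and BHLHE40, and shRNA against scrambled cells gave -0.71 ± 0.12 and 0.96 ± 0.10.

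The transporters differed from each other. SLC2A1, the broadly expressed glucose transporter GLUT1, rose from 105 and 109 to 175 and 179 CPM in scrambled Jurkat cells and lay between 101 and 129 CPM with the hairpins. SLC2A3, the high-affinity transporter GLUT3, was at 43.0 and 42.4 CPM in wild-type and 45.9 and 42.3 CPM in scrambled Jurkat cells, 90.8 and 92.4 CPM with shRNA-4057 and 52.4 and 52.8 CPM with shRNA-4058. For HSB-2 the values were 405 and 408 CPM in wild-type cells, 341 and 339 in scrambled cells, 561 and 565 with shRNA-4057 and 713 and 705 with shRNA-4058. SLC2A3 was above both controls in all shRNA libraries of both lines, although with the hairpins pooled it was called in HSB-2 only (0.91 ± 0.11 against scrambled cells, and 0.73 ± 0.26 in Jurkat). Its share of the summed per-kilobase level of both transporters was 26.1% in wild-type Jurkat cells, 18.0% in scrambled cells, 43.6% with shRNA-4057 and 27.1% with shRNA-4058, and 72.5% in wild-type HSB-2 cells. SLC16A3, the lactate exporter MCT4, had 51.4 and 56.2 CPM in wild-type and 81.5 and 78.0 CPM in scrambled Jurkat cells, 63.0 and 60.4 CPM with shRNA-4057 and 47.9 and 51.0 CPM with shRNA-4058. The HSB-2 libraries had 106 and 109 CPM in wild-type cells, 71.1 and 75.7 in scrambled cells, 148 and 139.5 with shRNA-4057 and 130.1 and 141 with shRNA-4058. Scrambled against wild-type cells gave 0.57 ± 0.05 in Jurkat and -0.55 ± 0.05 in HSB-2. SLC16A3 overlaps CSNK1D on the other strand.

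Of the 11 genes of upper glycolysis, 10 were called higher in scrambled than in wild-type Jurkat cells, PFKM being the exception, with log2 fold changes of 0.15 to 0.75; that of PFKP turns below 0 under library totals alone. With USP7 shRNA, 9 of the 11 were called lower than in scrambled Jurkat cells. Of all genes, 25.9% and 28.0% were called in these comparisons. In HSB-2, 4 were higher and 2 lower in scrambled than in wild-type cells, where 34.1% of all genes were called. With shRNA, 6 were higher and 1 (HK2) lower than in scrambled HSB-2 cells, where 38.1% of all genes were called. ALDOC, the brain-type aldolase (chr17:26900133-26903966, minus strand), had 242 and 250.4 CPM in wild-type Jurkat cells, 391 and 403 in scrambled cells, 183 and 175 with shRNA-4057 and 156 and 164 with shRNA-4058. Its HSB-2 values were 290.0 and 291 CPM in wild-type cells, 255 and 268 in scrambled cells, 437 and 422 with shRNA-4057 and 667 and 688 with shRNA-4058. In Jurkat the shRNA libraries were below and in HSB-2 above both controls, with log2 fold changes against scrambled cells of -1.21 ± 0.07 and 1.09 ± 0.20. Its share of both aldolases per kilobase was 17.9% in scrambled Jurkat cells and 11.4% with shRNA-4058, but 7.41% in scrambled HSB-2 cells and 14.1% with shRNA-4058.

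HK2, the inducible hexokinase, had 210.1 and 212 CPM in wild-type and 299.9 and 300.1 CPM in scrambled Jurkat cells and 201 to 227 CPM with the hairpins. In HSB-2 its levels were 232 and 234 CPM in wild-type cells, 322 and 324 in scrambled cells, 228 and 227 with shRNA-4057 and 288 and 289 with shRNA-4058. The scrambled libraries were thus the highest of both lines. GPI, glucose-6-phosphate isomerase, had 608 and 637 CPM in wild-type Jurkat cells, 809 and 855 in scrambled cells and 687 to 733 CPM in the shRNA libraries. HSB-2 cells had 1484 and 1504 CPM in wild-type cells, 1449 and 1529 in scrambled cells, 2237 and 2166 with shRNA-4057 and 3324 and 3355 with shRNA-4058. The HSB-2 controls overlapped, and each hairpin lay above them without overlap, with a log2 fold change of 0.90 ± 0.19 against scrambled cells. In Jurkat the change was -0.22 ± 0.05, a sign that reversed when libraries were scaled by their totals alone. PFKFB4, which makes the activator of phosphofructokinase fructose 2,6-bisphosphate, had 94.8 and 99.1 CPM in wild-type and 162 and 163 CPM in scrambled Jurkat cells, 88.9 and 83.4 CPM with shRNA-4057 and 56.8 and 61.1 CPM with shRNA-4058. The change against scrambled cells was -1.14 ± 0.17. In HSB-2 it had 220.2 and 213 CPM in wild-type cells, 280.2 and 290.2 CPM in scrambled cells, 292 and 283 CPM with shRNA-4057 and 380.5 and 395 CPM with shRNA-4058. PFKFB3, its paralog with the same reaction, had 134 and 137 CPM in wild-type and 203 and 204 CPM in scrambled Jurkat cells but remained at 189 to 196 CPM with the hairpins, 0.54 ± 0.05 above wild-type cells. PFKFB3 thus made up 52.1% of the per-kilobase level of both genes in wild-type Jurkat cells, 49.4% in scrambled cells, 63.5% with shRNA-4057 and 71.9% with shRNA-4058. Among phosphofructokinase subunits, PFKM stayed under 1% of the per-kilobase level of the 3 genes in each group, and PFKP made up 68.3% in wild-type Jurkat and 56.8% in wild-type HSB-2 cells.

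The 7 genes of lower glycolysis were all called higher in scrambled than in wild-type Jurkat cells, by 0.35 to 0.75 on the log2 scale. With the hairpins pooled, 6 of them, all but LDHA, were called lower with shRNA than in scrambled cells. Of all genes, 25.9% and 28.0% were called in these comparisons. PGK1, phosphoglycerate kinase (chrX:77166236-77384792), had 1338 and 1362 CPM in wild-type Jurkat cells, 2274 and 2249 in scrambled cells, 1270.3 and 1265 with shRNA-4057 and 1248 and 1262 with shRNA-4058. ENO1, the ubiquitous enolase, had 3011 and 3146 CPM in wild-type Jurkat cells, 5103 and 5257 in scrambled cells and 2724 to 3007 CPM with the hairpins. Both genes were thus raised in the scrambled libraries and somewhat below the wild-type libraries in all shRNA libraries. With the hairpins pooled, neither was called against wild-type cells (-0.07 ± 0.04 for PGK1 and -0.09 ± 0.05 for ENO1). In HSB-2 the 4 genes called between scrambled and wild-type cells were all higher (PGK1, PGAM1, ENO1 and LDHA), by 0.17 to 0.36. GAPDH, PGAM1 and ENO2 were called higher with shRNA than in scrambled HSB-2 cells. Of all genes, 34.1% and 38.1% were called in these comparisons. Against wild-type HSB-2 cells all 7 were called higher with shRNA, by 0.21 to 0.50, where 25.1% of all genes were called. The count of called members in that comparison fell when either wild-type library was left out, as given above. The annotation names 65 pseudogenes after GAPDH, 44 after BNIP3, 13 after PGAM1, 6 after LDHA, 5 after PKM and 4 each after ENO1 and TPI1, and how the counting divided such reads is not known. Exons of PGK1 overlap those of ATP7A on the same strand, as do those of PFKFB4 and UCN2, and BHLHE40, PDK1, PFKM, TPI1 and ENO1 have an antisense neighbour over their exons.

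The hairpins were compared with each other in the fit of all 16 libraries, again as a description, since the levels in all 8 groups were known when the genes were chosen. In Jurkat, 11 genes were higher and 12 lower with shRNA-4057 than with shRNA-4058, where 33.9% of all genes were called. ADM had the largest difference, -2.11 ± 0.11, with 2.14 and 2.32 CPM against 8.75 and 10.5 CPM. EGLN3 differed by -0.95 ± 0.08 and DDIT4 by -0.80 ± 0.04. The genes called lower with shRNA-4057 included 4 of the 5 regulators (BHLHE40, MXI1, DDIT4 and ANKRD37), and those called higher included SLC2A3, SLC16A3, NDRG1, P4HA1, PFKFB4, PFKL, ALDOC and ENO2. Set against the scrambled Jurkat libraries, which both hairpins share, 2 genes were higher and 34 lower with shRNA-4057, where 22.7% of all genes were called higher and 27.3% lower. With shRNA-4058, 2 were higher and 33 lower, where 46.5% of all genes were called (19.7% higher). Against wild-type Jurkat cells, DDIT4 and ADM were called in opposite directions with the hairpins. In HSB-2, 30 genes were called lower and 3 higher with shRNA-4057 than with shRNA-4058, where 24.8% of all genes were called. Those called higher were HIF1A, EGLN3 and CA9, the last on 10 and 14 against 4 and 5 counts. The named differences were -0.89 ± 0.13 for ADM, -0.66 ± 0.04 for ALDOC and -0.60 ± 0.04 for GPI. Against the shared scrambled HSB-2 libraries, 21 genes were higher and 12 lower with shRNA-4057 (43.6% of all genes called, 21.9% higher), and 28 higher and 4 lower with shRNA-4058 (52.8% of all genes called, 26.6% higher). DDIT4, BNIP3 and PFKP were called lower with shRNA-4057 and higher with shRNA-4058. Against wild-type HSB-2 cells, 33 were higher and 3 lower with shRNA-4057 (31.7% of all genes called) and 36 higher and 1 lower with shRNA-4058 (23.0% of all genes called higher and 21.1% lower). The level of USP7 was lower with shRNA-4057 than with shRNA-4058 in both lines, and its part in these differences was not tested.

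**Figure D4:**
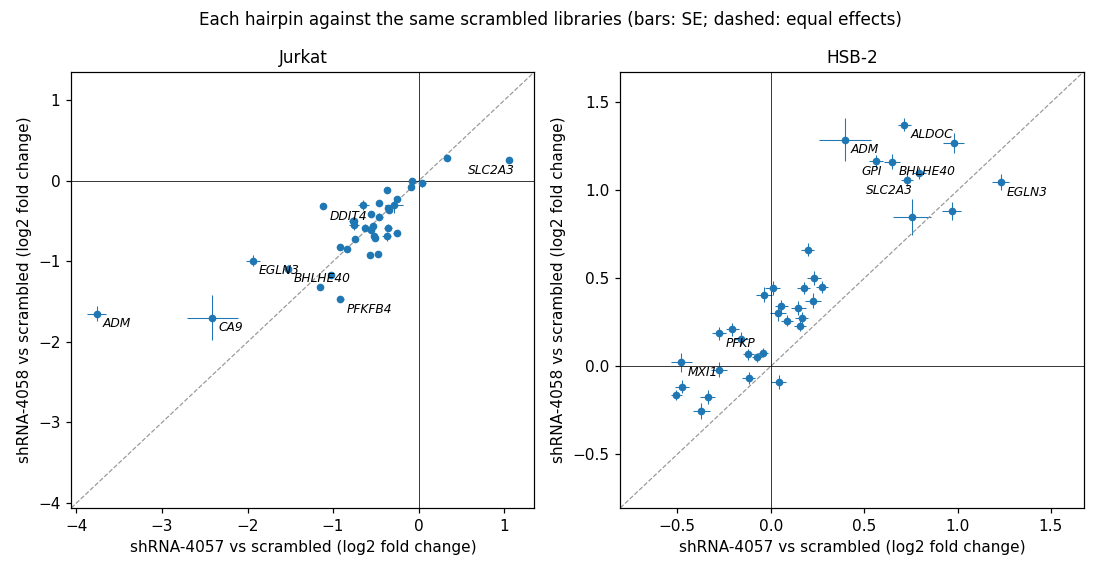
Log2 fold change against scrambled cells with shRNA-4057 (horizontal) and shRNA-4058 (vertical) for each gene in Jurkat and HSB-2, with bars for the standard error and a dashed line at equal changes; both axes share the scrambled libraries, and P4HA2 and the HSB-2 value of CA9 are left out for low counts. In Jurkat ADM lies farthest from the dashed line, at -3.76 and -1.65, and in HSB-2 nearly all points lie above it.

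The difference between shRNA and scrambled cells was compared between the lines with an interaction term in the 12 shRNA and scrambled libraries. In 27 genes the effect against scrambled cells was higher in HSB-2 than in Jurkat and in 1 (KDM3A) lower, where 37.7% of all genes were called in either direction, with a median difference of 0.82 on the log2 scale. Under library totals alone 22 were higher and 4 lower, and the median of all genes moved by -0.42. The named differences were 3.27 ± 0.79 for ADM, 3.10 ± 0.78 for CA9 and 2.52 ± 0.32 for EGLN3. CA9 met the 1 CPM threshold for naming only through scrambled Jurkat cells. Its 4 to 14 counts in the scrambled and shRNA HSB-2 libraries are too few for a level, so its difference between lines is not to be read. By the calls within each line with the hairpins pooled, 15 genes were lower in Jurkat and higher in HSB-2. KDM3A was higher in Jurkat and lower in HSB-2, and 12 genes were lower in Jurkat and not called in HSB-2. HIF1A, DDIT4, VEGFA, PFKFB3 and LDHA were called in neither line. Against scrambled Jurkat cells, DDIT4 and LDHA were nevertheless called lower with each hairpin alone. Taken singly, 15.7% of all genes tested were lower in Jurkat and 20.3% were higher in HSB-2. The share of all genes with both of these calls is not given here, so the count of 15 has no background of its own. The controls differed between the lines as well. The same scrambled libraries enter both interaction terms, with opposite sign, so the results are not independent. A different action of the USP7 hairpins and a different state of the scrambled cells cannot be told apart here. For the effect of the scrambled control against wild-type cells, 28 genes were lower and 4 higher in HSB-2 than in Jurkat (28.4% of all genes called; 19 lower and 6 higher under library totals alone). BHLHE40 differed by -1.34 ± 0.06 and SLC16A3 by -1.12 ± 0.07. CA9 differed by -2.04 ± 0.73, a call lost under library totals alone, under an offset for GC content and length, and without 5 of the 8 libraries in turn.

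**Figure D5:**
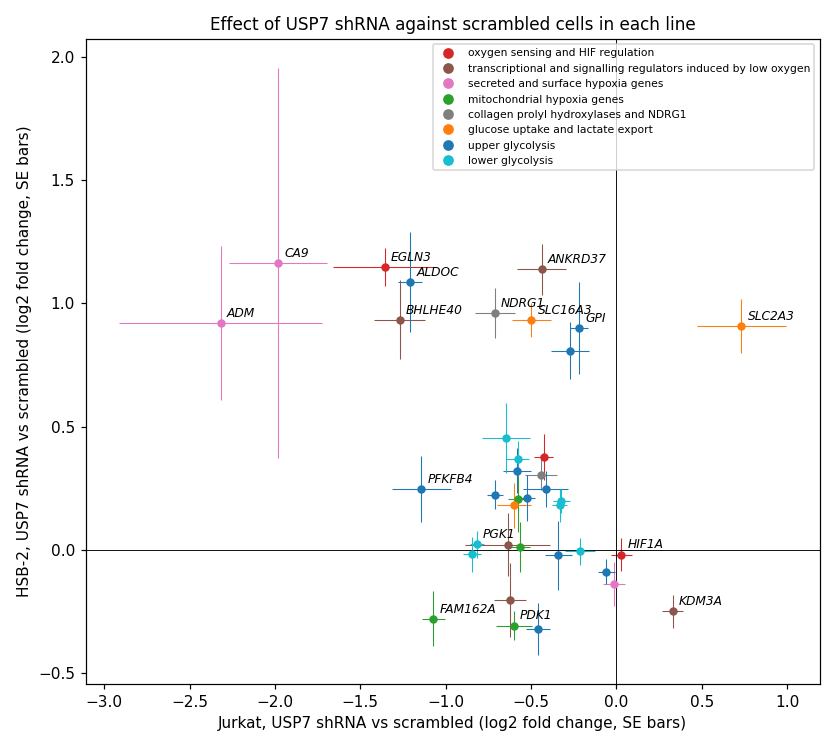
Log2 fold change of USP7 shRNA against scrambled cells in Jurkat (horizontal) and HSB-2 (vertical) for each gene tested in both lines, coloured by role, with bars for the standard error. Most points lie in the upper left, lower in Jurkat and at or above 0 in HSB-2; the HSB-2 value of CA9 rests on 4 to 14 counts per library, and GPI changes sign in Jurkat under library totals alone.

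Wild-type cells of the lines were also compared. Of the 39 genes, 31 were higher in HSB-2 and 5 lower, which is read against a background of 68.1% of all genes called. EGLN3 was 4.10 ± 0.06 higher and SLC2A3 3.25 ± 0.04 higher on the log2 scale. ADM was lower by 3.58 ± 0.15. The genes lower in HSB-2 were ADM, CA9, BNIP3, PDK1 and PGAM1.

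Other genes of the pathways were described from lists that hold none of the 39 genes, and their counts are to be read against the shares of all genes called in either direction. In Jurkat these were 25.9% for scrambled against wild-type, 28.0% for shRNA against scrambled and 8.41% for shRNA against wild-type cells, and in HSB-2 34.1%, 38.1% and 25.1%. Of 21 tested genes of another 24 known to be induced by low oxygen, 15 were higher and 1 lower in scrambled than in wild-type Jurkat cells, among them ANGPTL4 (1.61 ± 0.14) and HILPDA (1.10 ± 0.04), genes of lipid handling. With shRNA, 14 were lower and 1 higher than in scrambled Jurkat cells, among them GBE1, the glycogen branching enzyme (-1.43 ± 0.06), and HILPDA (-1.37 ± 0.07). Against wild-type Jurkat cells, which leaves the scrambled libraries out, 1 was higher and 2 lower with shRNA. In HSB-2, 11 were higher and 5 lower in scrambled than in wild-type cells. With shRNA, 10 of 20 tested were higher and 1 lower than in scrambled HSB-2 cells, among them STC2, a secreted glycoprotein (1.78 ± 0.09), and 14 were higher and 1 lower than in wild-type HSB-2 cells.

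Of 15 tested genes of other glycolysis enzymes and lactate transporters, 1 was higher and 4 lower in scrambled than in wild-type Jurkat cells, a share near that of all genes. With shRNA, 3 were higher and 1 lower than in scrambled Jurkat cells, and the median log2 fold change against wild-type cells was 0.0034. Of 17 genes of the tricarboxylic acid cycle, 7 were higher and 1 lower in scrambled than in wild-type Jurkat cells, 8 were lower with shRNA than in scrambled cells and 3 were lower with shRNA than in wild-type cells. Among 7 genes of the pentose phosphate pathway, 4 were lower with shRNA than in scrambled Jurkat cells and 1 was lower than in wild-type cells. Among 11 tested genes of pyruvate entry into mitochondria, MPC2, a subunit of the mitochondrial pyruvate carrier, was the 1 called with shRNA against scrambled Jurkat cells (-0.64 ± 0.06). With shRNA against scrambled HSB-2 cells, 5 genes of the tricarboxylic acid cycle were higher and 3 lower. In the pentose phosphate pathway 2 were higher and 1 lower there, and in pyruvate entry 1 was higher and 4 lower. Of 12 tested other glycolysis enzymes and lactate transporters, 0 were higher and 3 lower. Of 9 tested regulators of the HIF pathway, 2 were higher and 4 lower in scrambled than in wild-type cells of Jurkat, and likewise 2 and 4 in HSB-2. The largest change among them was that of EPAS1, which encodes the paralog of HIF1A, in HSB-2, at -3.55 ± 0.06 in scrambled against wild-type cells, 4.02 ± 0.14 with shRNA against scrambled cells and 0.46 ± 0.11 with shRNA against wild-type cells.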

How the data were processed

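The deposited values are whole-number counts of reads per gene, which the authors made with HTSeq 0.6.1p1 from reads of ribosomal RNA-depleted total RNA (a stranded library kit), on build hg19. The submitters' processing notes also list CASAVA, STAR and BWA. The annotation release and the strand setting are not given in the sources used here. Counts were tested as deposited with edgeR 4.0.16 (R 4.3.3), with TMM scaling and quasi-likelihood tests, and p-values were adjusted over all genes tested by the Benjamini-Hochberg method with a threshold of 0.05. Contrasts between single groups came from a fit of all 16 libraries, shRNA against each control from fits of 4 against 2 libraries per line, and the shRNA effect between lines from a fit of 12 libraries. Totals were 76.6 to 235 M counts (M, mega) per library, and 3 counts, the smallest number read as a level, correspond to 0.0127 to 0.0392 CPM. The members and gene lists were chosen with earlier results of these data known. Genes named with a difference are the 6 called members with the largest log2 fold change and at least 1 CPM in a group for scrambled against wild-type and shRNA against scrambled cells, and 3 in each other comparison; other members are named for their role. Alternatives were DESeq2 1.42.0, other scalings and filters, an offset for GC content and length, a replicate block, single hairpins and leaving out each library. The scripts were tested on simulated data. Positions are from an annotation lifted to GRCh37 and promoter windows from RefSeq (GRCh38.p14). A gene of the list of other genes induced by low oxygen is counted in that list but not reported here by name.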

Additional observations from a re-analysis of the deposited data

Results flagged for a closer look

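The effect of USP7 shRNA against scrambled cells differed between the lines, as HSB-2 minus Jurkat on the log2 scale in an interaction test, by 3.27 ± 0.79 (SE) for ADM, by 3.10 ± 0.78 for CA9 and by 2.52 ± 0.32 for EGLN3. The effect of the scrambled control against wild-type cells differed by -2.04 ± 0.73 for CA9, by -1.34 ± 0.06 for BHLHE40 and by -1.12 ± 0.07 for SLC16A3. Both effects use the same scrambled libraries, with opposite sign, so they are not independent. Each difference was called in edgeR's quasi-likelihood test, and since the genes were chosen with such differences known, the values are a description. CA9 had 2 to 14 counts per library in HSB-2, too few for a level, so its differences between lines are not to be read.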

How the results depend on the processing

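Of 162 recomputed counts of called members, 146 stayed within 1.5 times the reported count and 16 did not. Of 651 recomputed values of named genes, which are those with the largest changes, 632 kept their call, 19 lost it and 0 changed sign. Other called members did change sign under library totals alone. These were PFKP for scrambled against wild-type and GPI for shRNA against scrambled Jurkat cells. For the scrambled effect between lines they were HIF1A, PFKP, PFKFB3 and LDHA. The count of 4 for shRNA against wild-type Jurkat cells was 8 with library totals only, 7 where each library had to reach 10 counts, 9 with an offset for GC content and length, 9 with DESeq2, 27 with either hairpin alone and 28 with the hairpins as separate groups. Over all genes that comparison called 1798, 451 with the replicate block and 3124 with DESeq2. Leaving out each library in turn gave 0 to 5 calls there, 17 to 32 for shRNA against scrambled and 32 to 34 for scrambled against wild-type Jurkat cells. In HSB-2 it gave 9 to 25 for shRNA against scrambled, 7 to 34 for shRNA against wild-type and 26 to 27 for scrambled against wild-type cells. It gave 21 to 22 and 29 to 32 between hairpins in Jurkat and HSB-2, 28 to 29 for the shRNA effect between lines, 27 to 31 for the scrambled effect and 35 to 36 for wild-type cells. A control left with 1 library is assumed to vary like the other groups. Apart from the totals given, the share of all genes called under each setting is not given here. These counts of members are therefore not to be read as particular to the members.

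The deviations of same-numbered libraries were correlated with mixed sign: of 12 pairs of groups within a line, 4 had a correlation over 0.1 and 6 under -0.1 (-0.3431 to 0.2453). With the replicate number as a block, 2 members were called for shRNA against wild-type and 29 for shRNA against scrambled Jurkat cells, and 23 and 18 in HSB-2. The block gave 34 and 26 for scrambled against wild-type cells, 28 for the shRNA effect between lines, 30 for the scrambled effect and 35 for wild-type cells. Apart from shRNA against wild-type Jurkat cells, the share of all genes called with the block is not given here. The counts with the block are thus not to be read as particular to the members. The cause of their changes was not tested.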
